A study of Mus musculus with 3 samples.

Results

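The Notch pathway was followed through 10 genes: the 4 receptors Notch1, Notch2, Notch3 and Notch4, the ligands Dll4, Jag1 and Jag2, and the target genes Hes1, Hey1 and Heyl. They were taken by symbol, and all 10 were found among the 27998 genes of the count matrices. The matrices are 3 single-cell RNA libraries of lung cells depleted of CD45-positive cells, taken from MMTV-HER2/Neu mice on the FvB strain background and made with the Chromium 3' version 3 kit. In these mice the MMTV promoter, which is active mainly in mammary epithelium, drives the rat homologue of HER2, and mammary tumours form. All groups share this transgene, the tissue and the removal of CD45-positive leukocytes. The early HER2-negative library holds cells sorted without surface HER2 from mice of 14 to 18 weeks with no palpable tumour, labelled as lung cells that are not cancer. The early HER2-positive library holds HER2-sorted cells from mice of the same age and stage, and the late HER2-positive library holds HER2-sorted cells from mice older than 20 weeks with primary tumours. The labels call the cells of both HER2-positive libraries breast cancer cells. Each group has 1 library, and the number of mice behind a library is not given in the sources used here. Stage, age, animal and library cannot be told apart. Between the early libraries, the HER2 sort and the library cannot be told apart either. No difference below has a replicate check, and none was tested. Where 3 values follow each other without names, they run from the HER2-negative through the early to the late HER2-positive library, and a pair gives the early and then the late HER2-positive library.

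Notch receptors are membrane proteins that bind ligands of the Delta-like and Jagged families on a neighbouring cell. Binding leads to cleavage by ADAM proteases and the presenilin-containing gamma-secretase complex, and the freed intracellular part enters the nucleus, joins RBPJ and Mastermind proteins, and switches on targets such as the Hes and Hey repressors. In blood vessels Notch1, Notch4 and Dll4 are known from endothelium and from arterial identity, and Notch3 from the mural cells that wrap the vessel. In the airway, Notch signalling is known to set the balance of secretory and ciliated cells. In the mammary gland it is known for its part in luminal cell fate.

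Barcodes were kept with at least 1000 unique molecular identifiers (UMIs, one per captured RNA molecule) and under 25% mitochondrial UMIs. This left 6416 cells in the HER2-negative library and 7622 early and 6012 late HER2-positive cells, with 23039097, 44541222 and 51075059 UMIs. Median UMIs per cell were 3166, 5318.5 and 8075. Cells were placed in 7 classes by the first matching rule: mammary (Csn3 and Wfdc18 together at least 1% of UMIs), alveolar type 2 (Sftpc at least 10%), airway (Cyp2f2 and Foxj1, 3 UMIs), arterial (1 Gja5 and 1 Cdh5 UMI), other endothelial (Cldn5 and Cdh5, 2 UMIs), pericyte (Higd1b and Cox4i2, 2 UMIs) and smooth muscle (Myh11 and Cnn1, 3 UMIs). None of these is a pathway member. Levels are the summed counts of a class per 1000000 of its UMIs (CPM), with exact Poisson 95% intervals in parentheses that cover counting error only. Ratios carry exact conditional 95% intervals of the same kind. A member was called higher or lower in a comparison when its CPM differed at least 1.5-fold with at least 10 counts over the pair, and classes under 50 cells were not compared.

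The classes held what their names say, by marker genes that the rules did not use. All 7 markers listed for alveolar type 2, airway, pericyte and smooth muscle cells, and all 8 for mammary cells, were highest in their own class in each library where the class had at least 50 cells. Of 6 arterial markers, 4, 5 and 4 were highest in the arterial class of the 3 libraries. The arterial class rests on few UMIs: 165 of 245, 107 of 168 and 50 of 130 cells had a single Gja5 UMI. Of 7 endothelial markers, 7, 4 and 5 were highest in the other endothelial class, and the arterial class is endothelial too. The labels and the markers part in the HER2-positive libraries: alveolar type 2 cells made up 51.7% and 66.5% of the early and late libraries, and the mammary rule was met by 161 of 6012 late cells and by 0 of 7622 early cells, which allows a share of up to 0.0394%. Mouse Erbb2 stood at 16.9, 19.7 and 39.8 CPM over all cells of each library. Cells that met the rules of more than 1 class made up 0.904%, 13.7% and 13.1% of the 3 libraries. These mixed cells carry the genes of both classes, no doublet caller was run, and member calls are also given without them. Counts over lists of other pathway genes include them. Between 10 and 18 cell barcodes were shared by each pair of libraries.

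Promoter sequence was at hand for 7 of the 10 members in RefSeq's table on build GRCm38.p6, and Hes1, Hey1 and Heyl had no entry. The promoters of Notch4, Dll4 and Notch3 are shown because these genes divide the vessel wall most cleanly in the counts below, the first pair in endothelium and the third in mural cells. They lie upstream of the RefSeq start, at chr17:34564045-34564267 on the plus strand for Notch4, chr2:119325534-119325783 on the plus strand for Dll4 and chr17:32166891-32167140 on the minus strand for Notch3. Each is written 5′ to 3′ on the gene's strand, with capitals for GGAA, the core that ETS factors bind, and for GGGCGG, the GC box, on either strand.

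Notch4: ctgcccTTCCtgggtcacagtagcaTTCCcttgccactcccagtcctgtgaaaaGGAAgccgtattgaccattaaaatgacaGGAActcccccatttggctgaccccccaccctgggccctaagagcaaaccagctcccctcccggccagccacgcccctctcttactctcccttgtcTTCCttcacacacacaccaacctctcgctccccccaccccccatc
Dll4: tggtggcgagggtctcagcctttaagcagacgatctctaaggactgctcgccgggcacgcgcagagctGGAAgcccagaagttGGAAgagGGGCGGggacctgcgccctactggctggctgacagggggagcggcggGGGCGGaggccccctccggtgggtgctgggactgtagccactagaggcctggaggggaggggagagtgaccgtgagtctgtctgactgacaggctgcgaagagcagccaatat
Notch3: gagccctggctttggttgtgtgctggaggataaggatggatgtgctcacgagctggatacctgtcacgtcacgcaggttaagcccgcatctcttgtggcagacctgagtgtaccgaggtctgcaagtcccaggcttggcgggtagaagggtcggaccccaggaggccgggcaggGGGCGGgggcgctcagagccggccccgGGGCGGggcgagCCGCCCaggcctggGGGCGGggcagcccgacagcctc

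The Notch4 stretch held 5 GGAA and no GGGCGG, the Dll4 stretch held 2 of each, and the Notch3 stretch held 0 GGAA and 4 GGGCGG. Distances are from the RefSeq start. The GGAA matches lay 72 to 244 bases before that of Notch4 and 167 to 182 bases before that of Dll4. The GGGCGG matches of Notch3 lay 23 to 76 bases before its RefSeq start. The Notch4 stretch is printed for 223 of the 250 bases searched, because it was cut before the GENCODE start of the gene. GGAA was found in 93.4% of 32851 promoters of 250 bases, and GGGCGG in 32.7%. TGGGAA, the core bound by RBPJ, which overlaps a GGAA wherever it occurs, and CACGTG, an E-box, were in none of the 7 member promoters, against 21.6% and 6.02% of all promoters. A match is a description of letters and not a measured site. On GRCm38 with GENCODE M21, Notch3 spans chr17:32120820-32166852, Notch4 chr17:34564268-34588503 and Dll4 chr2:119325784-119335962. Notch1 (2 transcripts), Notch3, Notch4 and Dll4 each overlap an annotated transcript on the other strand. Notch1 (Mir6996), Notch2 (Gm42819 and Gm42820) and Jag2 (Mir6941) overlap annotated genes on their own strand. How strand was counted is not given in the sources used here, so reads of such pairs may not be told apart.

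**Figure D1:**
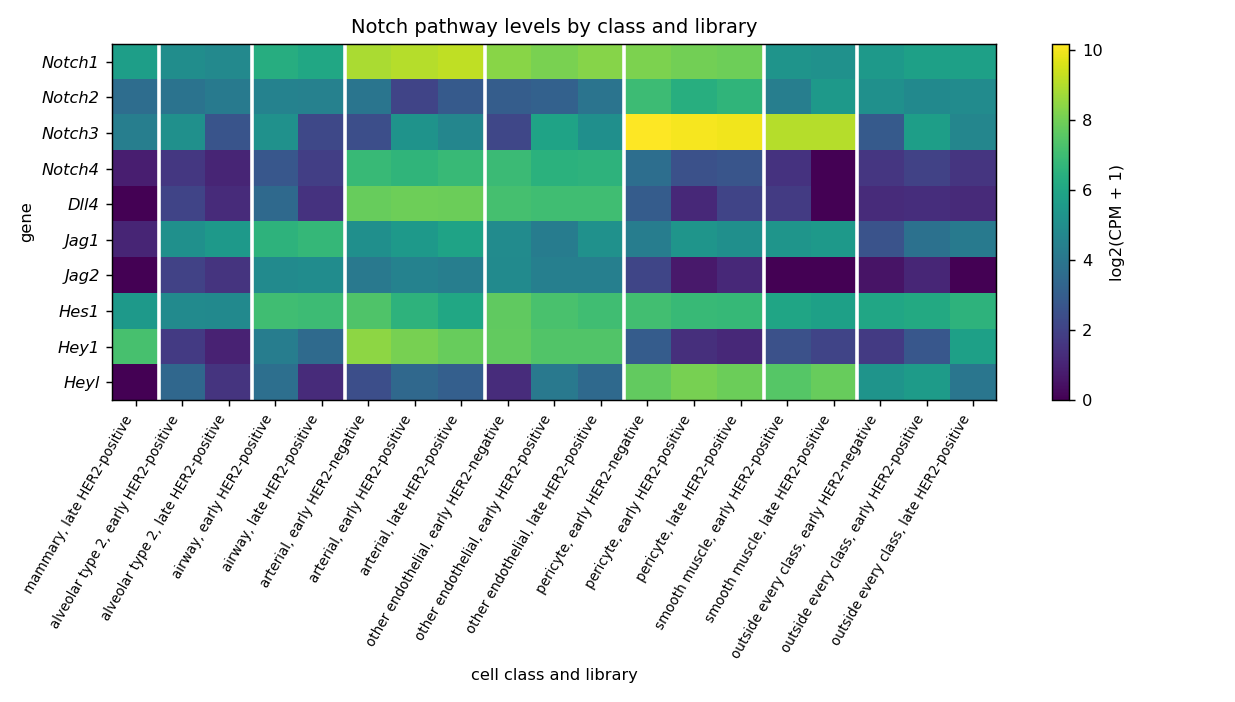
Level of the 10 genes (rows) in each class of each library with at least 50 cells and in the cells outside every class (19 columns), as log2(CPM + 1) by colour, with white lines between classes. Notch4, Dll4 and Hey1 are bright in the arterial and other endothelial columns, Notch3 and Heyl in the pericyte and smooth muscle columns, and Hey1 also in the single mammary column.

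The receptors divided the vessel wall. Notch3 was the mural receptor: pericytes stood at 1157 CPM (1072 to 1248) among HER2-negative cells, 1063 CPM (1027 to 1100) among early HER2-positive cells and 990 CPM (955 to 1025) among late ones. Smooth muscle cells came next, at 524 CPM (490 to 560) early and 531 CPM (486 to 580) late, and their intervals overlap. Pericytes of the 3 libraries held 82.7%, 58.0% and 77.4% of each library's Notch3 counts. The 39 smooth muscle cells of the HER2-negative library had 253 CPM on 47 counts. All other classes of at least 50 cells were below 60 CPM, and the part of mixed cells in those lower values is large: other endothelial cells had 58.2 CPM of Notch3 in the early HER2-positive library, but 2.44 CPM without mixed cells. After every cell was thinned to 1000 UMIs, 59.3% of late pericytes and 47.2% of late smooth muscle cells kept a Notch3 UMI, against 0.25% of late alveolar type 2 cells (95.7%, 88.2% and 1.55% unthinned, at medians of 3792, 6012.5 and 8837 UMIs per cell).

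Notch4 was an endothelial receptor. Other endothelial cells had 121 CPM (116 to 126), 89.9 CPM (82.4 to 97.9) and 93.8 CPM (81.1 to 108) of Notch4, and arterial cells 114, 99.2 and 115 CPM. The endothelial classes overlapped in their intervals in each library, and the other classes of at least 50 cells were lower, among them pericytes with 7, 15 and 17 Notch4 counts and early airway cells with 5.80 CPM on 8 counts. Endothelial cells of the 2 classes together held nearly all Notch4 counts of the early HER2-negative library, 93.3% in other endothelial and 5.93% in arterial cells. Late smooth muscle cells had 0 Notch4 counts, a floor of 3.20 CPM at 3 counts.

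Notch1 was shared by endothelium and pericytes. Arterial cells stood highest in each library, at 469 CPM (429 to 511), 529 CPM (483 to 579) and 591 CPM (543 to 642). Other endothelial cells followed at 328, 279 and 318 CPM, and pericytes at 291, 254 and 242 CPM. Intervals of these next classes overlapped in both early libraries and not in the late one, where other endothelial cells spanned 294 to 343 CPM and pericytes 225 to 260 CPM. Airway cells had 79.1 CPM early and 65.7 CPM late, late mammary cells 51.1 CPM (44.1 to 58.9), smooth muscle cells 37.8 and 34.2 CPM, and alveolar type 2 cells 31.2 and 26.6 CPM.

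Notch2 had its highest levels in pericytes too, at 126 CPM (99.3 to 159), 81.5 CPM (71.8 to 92.1) and 100 CPM (89.3 to 112). Smooth muscle cells had 19.5 CPM early and 44.8 CPM late. Cells outside every class had 33.2, 27.5 and 28.8 CPM, and those of them with fibroblast genes (3 or more UMIs of Col1a1 and Dcn) 41.7, 31.0 and 18.3 CPM. Endothelial cells were low, between 3.31 and 14.4 CPM in the 6 endothelial sums. Across the 4 receptors, endothelial cells carried Notch1 and Notch4, smooth muscle cells chiefly Notch3, and pericytes Notch1, Notch2 and Notch3.

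The ligands differed in place. Dll4, the Delta-like ligand of endothelium, stood at 226 CPM (199 to 256), 241 CPM (211 to 276) and 236 CPM (206 to 269) in arterial cells and at 143, 132 and 133 CPM in other endothelial cells. No other class passed 10.2 CPM, and early airway cells, which reached that value, had 1.98 CPM of Dll4 without mixed cells. Mammary and late smooth muscle cells had 0 Dll4 counts, with floors of 0.811 and 3.20 CPM.

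Jag1, a ligand of several lung cell types, was the most widely spread of the 3 in these classes. Airway cells had 93.6 CPM (78.1 to 111) early and 110 CPM (96.6 to 125) late. The next levels were those of late arterial cells at 58.6 CPM (44.2 to 76.3), late alveolar type 2 cells at 45.0 CPM (42.9 to 47.3), early arterial cells of the HER2-positive sort at 44.1 CPM and late smooth muscle cells at 43.8 CPM (31.4 to 59.4), and these 4 overlap. Alveolar type 2 cells, the largest class, held 66.1% and 75.4% of all Jag1 counts of the early and late HER2-positive libraries. Mammary cells were lowest, with 4 Jag1 counts in 161 cells, 1.08 CPM (0.295 to 2.77), and 1 cell held 75% of those counts.

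Jag2, the other Jagged ligand, was found in endothelium and airway. Other endothelial cells had 28.1, 20.0 and 20.2 CPM, arterial cells 16.2, 22.05 and 19.2 CPM, and airway cells 28.3 CPM (20.1 to 38.7) early and 30.1 CPM (23.3 to 38.3) late. These intervals overlap in each HER2-positive library. Mammary cells and both smooth muscle sums had 0 counts of Jag2, and pericytes 2, 2 and 4.

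The target genes followed different classes. Hey1, a target known from endothelium, stood at 346 CPM (312 to 383), 270 CPM (237 to 306) and 225 CPM (196 to 257) in arterial cells and at 213, 170 and 169 CPM in other endothelial cells. Heyl, a target known from mural cells, stood at 212 CPM (176 to 253), 272 CPM (254 to 291) and 237 CPM (220 to 255) in pericytes and at 181 CPM (162 to 203) and 224 CPM (195 to 257) in early and late smooth muscle cells. Cells outside every class had 37.5 and 47.3 CPM of Heyl in the early libraries, and those with fibroblast genes 48.4, 73.6 and 51.9 CPM in the 3 libraries. Hes1, the most general target, was above 27 CPM in all 19 sums: other endothelial cells had 204, 150 and 132 CPM, airway cells 133 and 125 CPM, pericytes 137, 114 and 113 CPM, and alveolar type 2 cells 28.0 and 27.1 CPM.

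Free RNA can add to the low values. Barcodes of 1 to 100 UMIs, taken as background, had 160, 56.5 and 48.5 CPM of Notch1, 31.9, 92.5 and 63.8 CPM of Notch3, and between 56.1 and 171 CPM of Hes1. Hey1 was at 131, 22.2 and 22.5 CPM there, and Jag2 at 17.8, 3.88 and 2.54 CPM. Notch2 was at 28.9, 40.9 and 33.7 CPM and Jag1 at 28.3, 29.3 and 37.7 CPM. These values give the make-up of free RNA and not its amount in a cell, and class levels can lie far below them. Late mammary cells had 0 Dll4 counts and 1.08 CPM of Jag1, beside 18.1 and 37.7 CPM in free RNA. Some levels lie below these values, such as Hes1 and Notch2 in alveolar type 2 and mammary cells. For these classes an alternative setting took off a free RNA share estimated from Cldn5 counts. Levels under it are not given here, and the part of free RNA was not tested further. Expression is not claimed from such levels alone.

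The arterial and other endothelial classes address whether Notch genes mark the arterial side. Dll4, Hey1 and Notch1 were on the arterial side in every library. Of the 10 members, 4 were called higher and 1 lower in the early HER2-negative library, where 14.7% and 14.0% of all genes tested were called higher and lower. In the early HER2-positive library 4 were higher and 4 lower, against 11.3% and 20.6% of all genes. In the late library 3 were higher and 2 lower, against 11.3% and 19.4%. The median log2 ratio of the members was 0.45, 0.14 and 0.11, beside -0.01, -0.08 and -0.07 over all genes tested. Without mixed cells the calls were 4 higher and 1 lower (14.6% and 13.9% of all genes), 4 and 3 (12.8% and 19.7%), and 3 and 2 (12.5% and 17.8%).

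Dll4 was 1.58-fold (1.38 to 1.80), 1.83-fold (1.57 to 2.13) and 1.77-fold (1.47 to 2.12) higher in arterial cells. Notch1 was 1.43-fold (1.30 to 1.56), 1.90-fold (1.71 to 2.10) and 1.86-fold (1.66 to 2.09) higher, so that it missed the call in the HER2-negative library. Hey1 was 1.63-fold (1.46 to 1.81), 1.59-fold (1.37 to 1.83) and 1.33-fold (1.12 to 1.58) higher, and missed the call in the late library. All 9 intervals stay above 1. Jag1 ratios were 1.11 (0.768 to 1.56), 2.38 (1.62 to 3.46) and 1.72 (1.18 to 2.48), called in both HER2-positive libraries.

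Notch4 stayed within 1.5-fold between the endothelial classes, at ratios of 0.940 (0.779 to 1.13), 1.10 (0.872 to 1.38) and 1.23 (0.961 to 1.56). Hes1 ran against Hey1: arterial cells had 165, 93.7 and 65.0 CPM against 204, 150 and 132 CPM, ratios of 0.810 (0.694 to 0.940), 0.625 (0.494 to 0.781) and 0.493 (0.367 to 0.653). The Hes1 intervals all stay below 1, and the call was made in both HER2-positive libraries. The HER2-negative arterial level of Hes1 lay below the 171 CPM of free RNA in that library. Jag2 was called lower in HER2-negative arterial cells, at 0.578 on 18 against 461 counts, and had ratios of 1.10 and 0.950 in the HER2-positive libraries. Notch2, low in endothelium, was called higher in HER2-negative arterial cells (16 counts) and lower in early and late HER2-positive ones (3 and 6 counts). Heyl was called higher in the first on 5 counts and lower in the second on 9, and without mixed cells the second had 2 against 4 counts at a ratio of 2.97, too few to call. Notch3 was called lower in early HER2-positive arterial cells at a ratio of 0.625, on 33 against 340 counts, which became 1 against 12 without mixed cells. Without them Notch1 was 1.44, 1.90 and 1.84, Dll4 1.57, 1.78 and 1.70, Hey1 1.61, 1.51 and 1.24, Jag1 1.12, 2.35 and 1.77, Notch2 2.21, 0.660 and 0.545, and Hes1 0.808, 0.531 and 0.461.

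**Figure D2:**
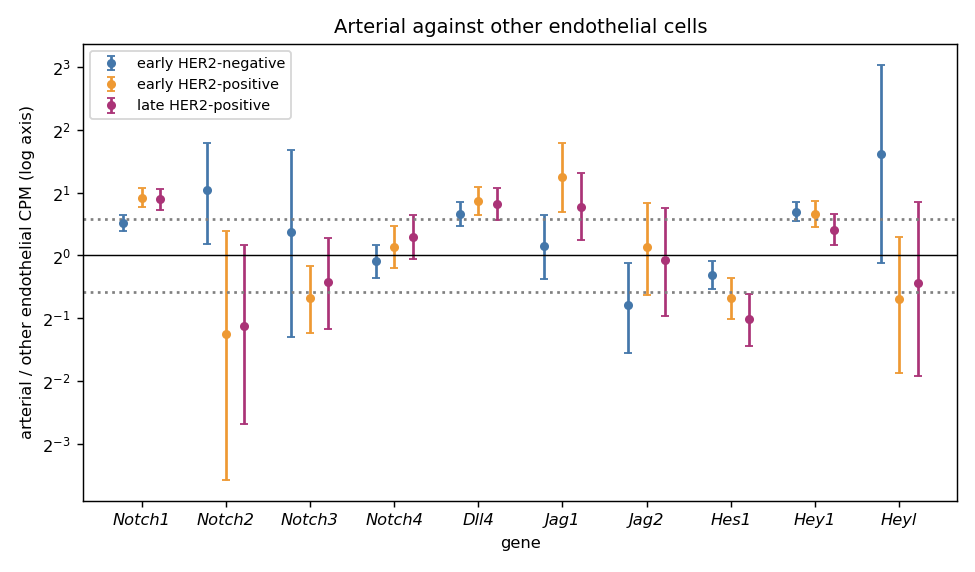
Ratio of arterial to other endothelial CPM (log axis) for each gene in the 3 libraries, with exact 95% counting intervals, a solid line at 1 and dotted lines at 1.5-fold in either direction. Notch1, Dll4 and Hey1 lie above the solid line with their whole intervals in all 3 libraries, and Hes1 lies below it.

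Within the arterial class, Notch1 went with Gja5. Cells with 1, 2 and at least 3 Gja5 UMIs had 424, 499 and 600 CPM of Notch1 in the HER2-negative library, 474, 560 and 658 CPM in the early HER2-positive library, and 488, 702 and 628 CPM in the late library. The ratio of at least 3 to 1 UMI was 1.41 (1.11 to 1.78), 1.39 (1.13 to 1.71) and 1.29 (1.06 to 1.57). Hey1 did not follow it: the same groups had 340 and 348 CPM, 306 and 155 CPM, and 275 and 196 CPM at 1 and at least 3 Gja5 UMIs. Dll4 stayed between 204 and 283 CPM over all 9 groups. Median UMIs per cell at 1 and at least 3 Gja5 UMIs were 3262 and 4321.5, 4436 and 6257, and 6011 and 7825, and the part of depth in these ratios was not tested.

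The capillary cells inside the endothelium divided on Hey1. Among other endothelial cells, those with Gpihbp1 and neither Car4 nor Vwf, the genes of general capillary, had 272, 258 and 227 CPM of Hey1, and those with at least 2 UMIs of Car4, the gene of aerocytes, had 91.1, 87.7 and 92.3 CPM. That is a ratio of 2.98 (2.65 to 3.37) in the HER2-negative, 2.94 (2.45 to 3.55) in the early and 2.46 (1.80 to 3.39) in the late HER2-positive library. Dll4 went the same way with a smaller ratio, 1.40 (1.25 to 1.57) among HER2-negative, 168 against 112 CPM among early HER2-positive and 1.98 (1.41 to 2.82) among late cells. Hes1 was level between them, with 214 against 218 CPM, 155 against 169 CPM and 117 against 147 CPM. Cells with Vwf and no Car4 lay between the other groups for Hey1, at 133, 136 and 184 CPM.

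Other pathway genes differed between the endothelial classes too. Of all genes tested, 14.7%, 11.3% and 11.3% were called higher in arterial cells, and 14.0%, 20.6% and 19.4% lower. These shares are the background of the list counts here and in the next paragraph. Lfng, a glycosyltransferase that modifies the receptors, was the 1 of 5 such enzymes to be called in arterial cells, lower in each library, at 32.5 against 76.8 CPM, 20.9 against 54.6 CPM and 14.9 against 52.4 CPM. Psen2, a presenilin of gamma-secretase, was 3.58-fold, 7.87-fold and 7.45-fold higher in arterial cells, while 2, 2 and 1 of the 9, 9 and 8 proteases tested were higher and 0, 0 and 1 lower. Other targets were higher in 5 of 7, 4 of 6 and 4 of 6 genes tested and lower in none, with Hey2 at 4.23-fold, 8.37-fold and 5.11-fold, Nrarp, a feedback inhibitor of the pathway, at 1.59-fold, 2.60-fold and 2.34-fold, and Efnb2 at 1.62-fold, 2.06-fold and 1.78-fold. The median log2 ratios of these targets were 0.67, 1.21 and 0.78.

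Of the 12 arterial genes listed, 9, 10 and 8 were higher, with medians of 1.60, 1.33 and 1.06. Dkk2, Bmx and Fbln5 were among the 4 with the largest ratios in each library, and Hey2 and Efnb2 stand in both the target and the arterial list. Sox17, an arterial transcription factor in many vessels, was lower in arterial cells of both HER2-positive libraries, at 0.388 and 0.429. Of 12 nuclear factors, 0, 1 and 0 were higher and 0, 3 and 2 lower, against 14.0%, 20.6% and 19.4% of all genes lower. Maml3, a Mastermind coactivator, was at 0.497 and 0.511 in the HER2-positive libraries. Of the turnover and ligand endocytosis genes tested (10, 10 and 8), 3, 1 and 0 were higher and 1, 3 and 2 lower, and Numb, an inhibitor of Notch, was lower each time at 0.539, 0.544 and 0.651. Of other ligands, 1 of 5 was tested and none was called.

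Pericytes and smooth muscle cells, both mural, differed in receptor levels. Pericytes were called higher for Notch1, Notch2 and Notch3 in both HER2-positive libraries, and Heyl and Jag1 were within 1.5-fold. Notch4 was also called higher in both, on 15 and 17 pericyte counts. Its pericyte levels of 4.78 and 5.46 CPM lay below the 13.1 and 7.24 CPM of free RNA. Of the 10 members, 5 were called higher and 1 lower in early pericytes, against 22.3% and 20.4% of all genes, and 6 were called higher and 0 lower in late pericytes, against 29.1% and 19.4%. The lower one was Hey1, with 5 counts against 8, and Dll4 and Jag2 early and Jag2 and Hey1 late had too few counts. Member medians were 0.94 and 1.10 on the log2 scale (the late one 0.83 with members at 0 counts set to the floor), beside 0.08 and 0.15 over all genes. Without mixed cells 6 and 5 were higher, against 24.3% and 29.4% of all genes, and 0 lower, against 23.0% and 21.0%. Smooth muscle cells of the HER2-negative library numbered 39 and were not compared.

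Notch1 was 6.73-fold (5.21 to 8.82) higher in early and 7.09-fold (4.98 to 10.4) higher in late pericytes, at 254 against 37.8 CPM and 242 against 34.2 CPM. Notch2 was 4.18-fold (2.90 to 6.20) and 2.23-fold (1.62 to 3.16) higher. Notch3 was 2.03-fold (1.88 to 2.19) and 1.86-fold (1.69 to 2.05) higher. Of these 3 receptors Notch3 had the smallest ratio and the most counts, 3339 against 887 early and 3083 against 498 late. Notch4 was called higher early on 15 counts against 3, with an interval of 0.762 to 14.5. Hes1 was 1.81-fold (1.46 to 2.28) and 2.07-fold (1.54 to 2.83) higher in pericytes.

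Heyl had an early ratio of 1.499 (1.31 to 1.71), just short of the call (1.51, and called, without mixed cells), and the late ratio was 1.06 (0.907 to 1.24). Jag1 had ratios of 0.980 (0.720 to 1.34) and 0.741 (0.511 to 1.09). Late pericytes were counted as higher for Notch4, with 17 counts against 0 and at least 1.70-fold over the floor, and for Dll4 with 10 counts against 0, where the floor of 3 counts allows equal levels. Without mixed cells Dll4 had 7 counts and was not called. Pericytes that also met the smooth muscle rule, 221 early and 157 late, lay between the classes for Notch1 (187 and 163 CPM) and near the pericyte level for Notch3 (1115 and 1049 CPM). Without them Notch1 was 7.53-fold and 7.83-fold higher in pericytes and Notch3 1.98-fold and 1.83-fold.

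Among the other targets Nrarp had the largest ratio, at 179 against 10.0 CPM early and 139 against 7.47 CPM late, 17.8-fold and 18.6-fold higher in pericytes. Hey2 went the other way, at 0.492 early and 0.294 late. Of all genes tested, 22.3% early and 29.1% late were called higher in pericytes, and 20.4% and 19.4% lower. These shares are the background of the list counts here, which include mixed cells. Of 6 other targets tested, 1 was higher and 3 lower early, and 2 were higher and 3 lower late. Of the proteases, 4 of 10 were higher early and 6 of 10 late, led by Ncstn (2.80 and 2.57) and Adam10 (2.24 and 2.26), with Psen2 lower late at 0.451. Of the nuclear factors, 2 of 12 and 5 of 12 were higher and 1 each time lower, with Maml3 at 2.73 and 2.81 and Rbpj itself at 0.508 in the late library. Glycosyltransferases were higher in 3 of 3 tested early and 1 of 3 late, and turnover genes in 4 of 9 and 5 of 9. The arterial genes were split, 4 higher and 5 lower of 9 each time, with Cxcr4 at 132 against 1.18 CPM early and 218 against 1.07 CPM late.

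The mammary class existed in the late library alone, and it was compared there with alveolar type 2 cells, the largest class of that library. Mammary cells stood above both lung epithelial classes in Hey1. They held 546 Hey1 counts in 161 cells, 148 CPM (136 to 161), against 36 counts in 3996 alveolar type 2 cells, 0.984 CPM (0.689 to 1.36), a ratio of 150 (107 to 217). That interval overlaps that of late other endothelial cells, at 169 CPM (152 to 188), and late airway cells had 10.5 CPM. After thinning to 1000 UMIs, 11.8% (7.26 to 17.8) of mammary cells kept a Hey1 UMI against 0.150% (0.0551 to 0.327) of alveolar type 2 cells, and 85.1% against 0.676% had one unthinned, at medians of 22179 and 8837 UMIs. The cell with most counts held 3.11% of the mammary Hey1 counts.

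Of the 10 members, 4 were called higher and 4 lower in mammary cells, against 45.2% and 24.0% of all genes, so the count does not stand out from the background. The member median was -0.51 on the log2 scale beside 0.43 over all genes. Without mixed cells 5 were higher and 3 lower, against 46.5% and 23.1%. Notch1 was 1.92-fold (1.64 to 2.25) higher, Hes1 1.62-fold (1.36 to 1.91) higher at 43.8 against 27.1 CPM, both below the 56.1 CPM of free RNA, and Notch3 3.64-fold (2.73 to 4.80) higher at 19.2 against 5.27 CPM. Without mixed cells the alveolar type 2 level of Notch3 was 0.564 CPM and the mammary level 19.3 CPM, a ratio of 34.3. This mammary level lay below the pericyte level of 990 CPM in the same library, and 31.7% of mammary cells had a UMI of it, 1.86% after thinning. Free RNA held 63.8 CPM of Notch3 in this library. Its part in the mammary level was not tested beyond the alternative setting with background RNA taken off.

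The ligands were low in mammary cells. Jag1 was at 1.08 CPM against 45.0 CPM in alveolar type 2 cells, a ratio of 0.0240 (0.00654 to 0.0616). Jag2 and Heyl had 0 counts against 69 each, at least 2.32-fold lower with a floor of 3 counts, and Dll4 had 0 against 50, at least 1.68-fold lower. Without mixed cells alveolar type 2 cells had 1.59 CPM of Jag2, 0.730 CPM of Dll4 and 0.232 CPM of Heyl. For Dll4 and Heyl that is below the mammary floor of 0.811 CPM, so equal levels are allowed there. Notch2 was at 11.4 against 17.0 CPM, a ratio of 0.668 (0.477 to 0.914) that was just short of the call. Notch4 had 3 counts against 40, and 3 against 16 without mixed cells, where it was called higher. Dll1, a ligand outside the member list, was at 4.33 against 0.492 CPM on 16 and 18 counts.

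Hey1 was similar across cells with more and fewer milk gene UMIs. Late cells with 1 to 3% and with at least 3% of UMIs from Csn3 and Wfdc18 had 142 and 150 CPM of Hey1, and the 19 cells just outside the rule, at 0.3 to 1%, had 196 CPM on 72 counts. Cycling mammary cells, with at least 2 UMIs of Mki67 and Top2a, had 141 CPM and the others 150 CPM. Hes1 was at 60.8 CPM in the 36 cycling and 36.9 CPM in the 125 other cells. Markers of other cell types were low in the class: endothelial markers summed to 29.5 CPM and pericyte markers to 19.5 CPM, and leukocyte and mesothelial markers were at 0. Alveolar type 1 markers summed to 7016 CPM, of which Aqp5, a water channel, made up 6961 CPM and Ager 34.1 CPM. The cells outside every class had 53.7 CPM of Hey1 in the late library, 82 counts of which 1 cell held 41.5%.

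**Figure D3:**
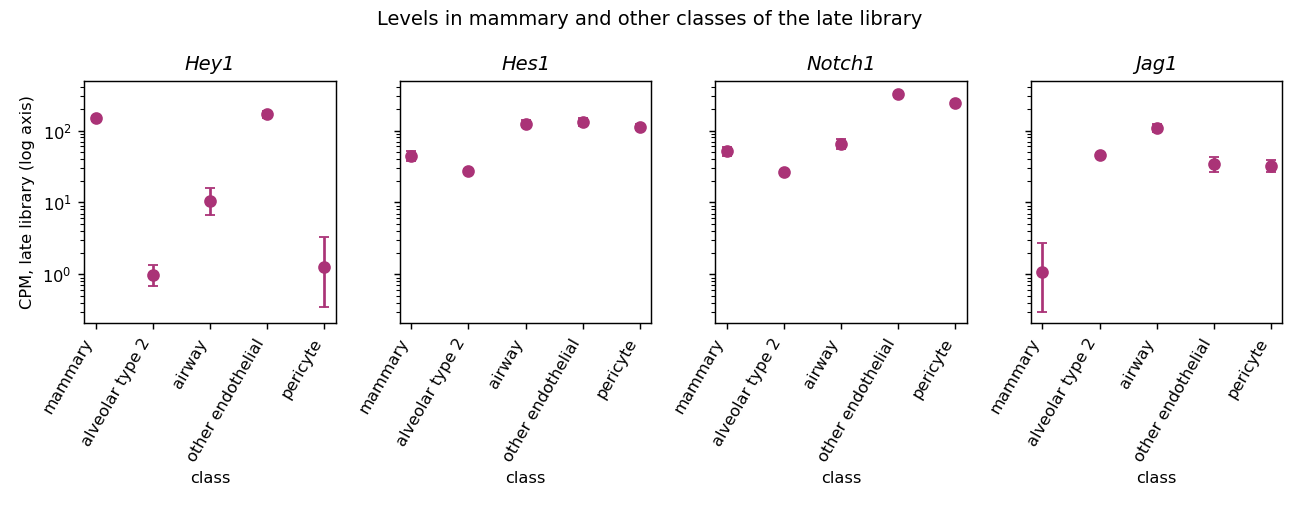
Level of Hey1, Hes1, Notch1 and Jag1 (CPM on a log axis, exact 95% counting intervals) in 5 classes of the late HER2-positive library. Hey1 in mammary cells, at 148 CPM, is near other endothelial cells and 150-fold above alveolar type 2 cells, and Jag1 in mammary cells, at 1.08 CPM, is the lowest of the 5.

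In the wider pathway, mammary cells were higher for Fbxw7, a ubiquitin ligase subunit that acts on Notch, at 63.3 against 13.5 CPM, and for Aph1a and Ncstn, subunits of gamma-secretase, at 2.98-fold each. Of all genes tested, 45.2% were called higher and 24.0% lower in mammary cells, the background of the list counts here. Of 10 proteases, 5 were higher and 2 lower, and the median log2 ratio of 0.55 was near the 0.43 of all genes. Maml3 was lower at 0.169, within 2 higher and 2 lower of 12 nuclear factors. Of 7 other targets tested, 2 were higher, with Bhlhe40 at 1.98-fold, and 3 lower, with Efnb2 at 0.157. Glycosyltransferases were 3 higher and 2 lower of 5, and turnover genes 3 higher and 3 lower of 10. Among arterial genes 4 were higher and 5 lower of 10, with Nrp1, a co-receptor of vascular growth factors, at 12.4 CPM against 379 CPM in alveolar type 2 cells.

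Hes1, Jag1, Jag2 and Notch1 were higher in airway cells than in alveolar type 2 cells in both HER2-positive libraries. Of the 10 members, 8 were called higher and 0 lower early, against 47.6% and 14.0% of all genes, and 6 higher and 0 lower late, against 43.1% and 16.7%. The member medians were 1.45 and 1.30 on the log2 scale, beside 0.53 and 0.42 over all genes. Hes1 stood at 133 CPM (114 to 153) against 28.0 CPM early and at 125 CPM (110 to 140) against 27.1 CPM late, ratios of 4.74 (4.02 to 5.57) and 4.60 (4.01 to 5.26). Jag2 was 9.31-fold (6.22 to 13.7) and 16.0-fold (11.2 to 22.7) higher, Jag1 2.80-fold (2.31 to 3.37) and 2.44-fold (2.13 to 2.80), and Notch1 2.54-fold (2.06 to 3.096) and 2.48-fold (2.06 to 2.95). Notch2, Notch4 and Dll4 were also called higher early, on 30, 8 and 14 airway counts. Notch4 was called higher late on 6 airway counts, of which 1 cell held 66.7%. Notch3 and Heyl were within 1.5-fold in both libraries. Early airway levels of Notch2, Notch4 and Dll4 were 21.8, 5.80 and 10.2 CPM, below the 40.9, 13.1 and 16.6 CPM of free RNA.

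Hey1 was also higher in airway cells, at 18.9 against 2.35 CPM early and 10.5 against 0.984 CPM late, on 26 and 23 airway counts, and 1 cell held 30.4% of the late counts. Both airway levels of Hey1 lay below the 22.2 and 22.5 CPM of free RNA. The airway class held 31 mixed cells of 155 early and 7 of 196 late. Without them Hes1 was 4.92-fold and 4.95-fold, Jag2 10.2-fold and 18.9-fold, Jag1 3.12-fold and 2.48-fold and Notch1 3.06-fold and 2.49-fold higher. Notch4 then had 0 airway counts in both libraries and Dll4 2 and 0. Members called higher were then 8 early and 6 late, against 45.3% and 42.6% of all genes, and lower 2 each, against 17.8% and 17.6%.

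Inside the airway class, Jag1 sat with the ciliated cells. Cells with at least 2 UMIs of Foxj1, the regulator of motile cilia, had 146 CPM of Jag1 early and 186 CPM late, and cells with 0 Foxj1, which passed through Cyp2f2, a club cell gene, had 36.1 and 26.6 CPM. The ratios were 4.04 (2.56 to 6.60) and 6.99 (4.67 to 10.9). Notch1 went the same way at 102 against 54.2 CPM and 86.1 against 43.4 CPM. Hes1 did not: it was at 102 against 161 CPM early, a ratio of 0.635 (0.461 to 0.868), and at 120 against 124 CPM late, 0.968 (0.754 to 1.24). Foxj1 and Cyp2f2 define the class, and neither is a member.

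Among other pathway genes, Dlk2, a Delta-like homologue, had 36.3 against 0.311 CPM early and 22.8 against 0.109 CPM late. Lfng was at 22.5 against 1.17 CPM and 22.4 against 0.574 CPM, 19.2-fold and 39.0-fold higher. The shares of all genes called, 47.6% early and 43.1% late, are the background of the lists that follow, and the shares of proteases and nuclear factors lie below them. Of the 5 glycosyltransferases 3 were higher early and 2 late, of the 10 proteases 4 and 2 with 1 and 0 lower, and of the 12 nuclear factors 5 and 4 with 0 and 1 lower. Turnover genes were higher in 6 and 9 of 11, with Neurl1a (7.10 and 3.47) and Dtx2 (3.58 and 3.97). Other ligands were higher in 2 of 2 tested. Other targets were split, 4 higher and 4 lower of 8 early and 4 and 3 of 7 late, with Nrarp and Hes6 higher and Hes2 at 0 counts in airway cells against 155 and 191. Of the arterial genes 8 were higher and 2 lower each time.

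The stage comparison sets early against late HER2-positive cells within each class, and it asks whether the members differ with the appearance of tumours. In vessel cells few were called. In arterial cells 0 of 9 members tested were called, against 13.5% of all genes higher and 9.99% lower in early cells. In pericytes 0 were higher and 1 lower early (Dll4, 4 against 10 counts), against 11.9% and 5.98%, and in smooth muscle cells 0 were higher and 1 lower (Notch2, at 19.5 against 44.8 CPM), against 16.0% and 8.53%. Notch3 in pericytes had an early to late ratio of 1.07 (1.02 to 1.13) and in smooth muscle cells of 0.986 (0.883 to 1.10), and Dll4 in other endothelial cells of 0.988 (0.860 to 1.14). Without mixed cells 0 were called in arterial cells (13.3% and 10.3% of all genes), and Dll4 in pericytes had 4 against 7 counts as the single lower call there, with 0 higher (10.6% and 6.88%).

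Other endothelial cells had 2 members higher and 2 lower early, against 12.2% and 5.98%. Jag1 was at 18.5 against 34.2 CPM, a ratio of 0.541 (0.398 to 0.741), and stayed at 0.539 without mixed cells. Notch2 was at 0.565 (0.347 to 0.932), and at 0.676 without mixed cells, where it was not called. Dll1, outside the member list, moved with Jag1, at 38.7 against 87.1 CPM. Notch3 and Heyl were called higher early, at 1.78 and 1.59, and were at 0.701 and 0.468 on 12 against 6 and 4 against 3 counts without mixed cells. This left 0 members higher and 1 lower, against 11.8% and 6.84%.

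In epithelium more members were called, and fewer without mixed cells. In alveolar type 2 cells 6 of 10 were higher early and 0 lower, against 15.3% and 3.66% of all genes, and in airway cells 5 and 0, against 20.5% and 5.93%. Alveolar type 2 Notch3 stood at 33.6 CPM (31.5 to 35.8) early and 5.27 CPM (4.56 to 6.07) late, 6.37-fold apart, and Heyl at 9.67 and 1.89 CPM. Of the 973 early Notch3 counts, 939 lay in the 269 alveolar type 2 cells that also met the pericyte or smooth muscle rule, and 172 of 193 late counts lay in 69 such cells. In cells that met 1 rule only, Notch3 was at 1.41 and 0.564 CPM and Heyl at 0.794 and 0.232 CPM, all below the free RNA values (92.5 and 63.8 CPM of Notch3, 33.9 and 15.6 CPM of Heyl). Members called higher early were then 4 in alveolar type 2 cells and 1 in airway cells, against 9.41% and 14.4% of all genes, and 0 were lower, against 4.38% and 8.74%. Those of alveolar type 2 cells were Notch3, Heyl, Dll4 and Jag2, none above 3 CPM.

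Members of higher level in alveolar type 2 cells stayed within 1.5-fold between stages. Jag1 was at 33.3 and 44.9 CPM in single-class cells, a ratio of 0.741, Hes1 at 25.5 and 25.6 CPM, Notch1 at 21.97 and 24.0 CPM and Notch2 at 12.1 and 16.8 CPM. Of these, Jag1 lay above the free RNA values of its libraries, and Hes1, Notch1 and Notch2 lay below theirs. In single-class airway cells Hes1 was at 126 CPM in both libraries and Jag2 at 29.7 and 30.1 CPM. Outside every class, 3 members were higher and 1 lower early, against 18.0% and 14.1% of all genes. The lower one was Hey1, at 5.72 against 53.7 CPM, where 1 late cell held 41.5% of the counts and mammary markers summed to 4865 CPM in the late cells.

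**Figure D4:**
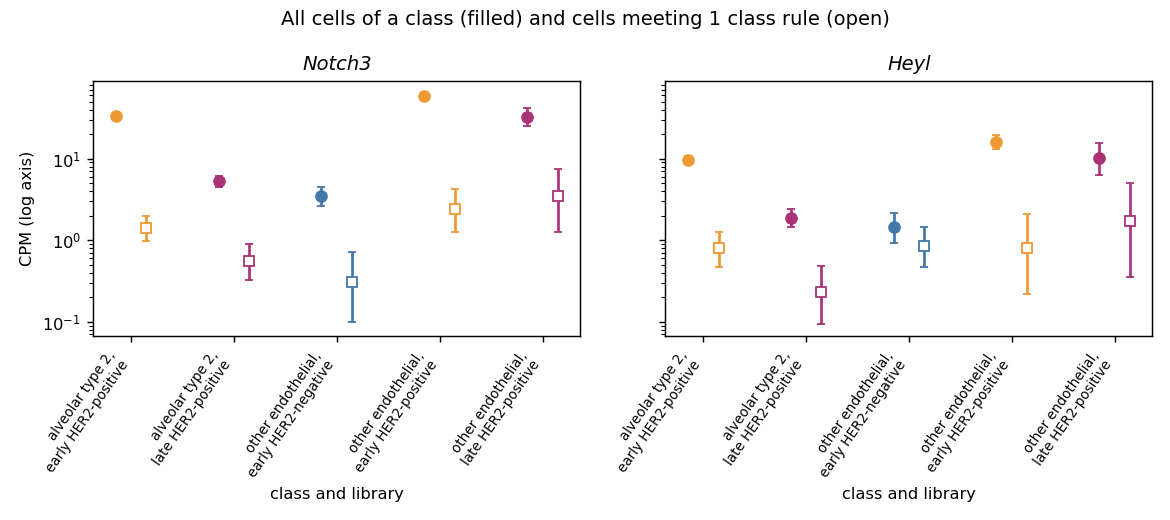
Notch3 and Heyl levels (CPM on a log axis, exact 95% counting intervals) in alveolar type 2 and other endothelial cells by library, for all cells of the class (filled circles) and for cells that met 1 class rule only (open squares). The open squares of the HER2-positive libraries lie below 4 CPM, while the filled circles reach 58.2 CPM for Notch3.

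The sort comparison sets HER2-positive against HER2-negative cells of the same age within the vessel classes. Sort and library cannot be told apart in it. Dll4 and Notch1 were within 1.5-fold between the sorts. In arterial cells the ratio of HER2-positive to HER2-negative was 1.07 (0.886 to 1.28) for Dll4 and 1.13 (0.995 to 1.28) for Notch1, in other endothelial cells 0.918 (0.846 to 0.997) and 0.851 (0.804 to 0.899). In arterial cells 2 members were called higher and 2 lower, against 11.7% and 17.8% of all genes. The higher pair was Notch3, on 33 against 5 counts, and Heyl, on 9 against 5. Without mixed cells these were 1 against 0 and 2 against 4 counts, too few to call, which left 0 higher and 2 lower, against 11.4% and 20.1%. Of the lower pair, Hes1 was at 93.7 against 165 CPM, a ratio of 0.568 (0.434 to 0.738) and 0.504 without mixed cells, while Notch2 rested on 3 against 16 counts. In the same cells Hey2 was at 43.0 against 5.41 CPM, Psen2 at 399 against 146 CPM and Sox17 at 83.8 against 235 CPM.

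In other endothelial cells 2 members were higher and 1 lower, against 13.1% and 6.67%. The higher pair was Notch3 (58.2 against 3.48 CPM) and Heyl (16.1 against 1.46 CPM), and the 143 mixed cells among 1390 held 328 of 340 Notch3 and 90 of 94 Heyl counts. Without mixed cells Heyl was at 0.813 against 0.862 CPM and Notch3 at 2.44 against 0.308 CPM. Jag1 was lower in HER2-positive cells at a ratio of 0.632 (0.508 to 0.780), and 0.598 without mixed cells, where 1 member was higher and 1 lower, against 9.36% and 7.69%. In pericytes 1 member was higher (Jag1, at 38.2 against 18.8 CPM) and 2 lower (Notch2, at 81.5 against 126 CPM, and Notch4, on 15 against 7 counts), against 17.6% and 10.1%. Without mixed cells Notch2 was at 0.850 and not called, which left 1 higher and 1 lower, against 15.5% and 10.0%. Outside every class 3 were higher and 0 lower, against 25.3% and 11.4%, and this remainder differs in make-up, since erythroid genes reached 91573 CPM in the HER2-negative and 3.05 CPM in the HER2-positive cells.

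Over the 19 sums of libraries and classes, Notch1, Notch4 and Dll4 went together, and so did Notch3 and Heyl. Correlations of log2(CPM + 1) are descriptions, and the sums share libraries, depth and mixed cells. Notch4 and Dll4 had a Pearson r of 0.98, Notch1 and Notch4 0.89, and Notch3 and Heyl 0.89. Hey1 had 0.78 with Dll4 and -0.57 with Heyl, and Notch2 had 0.72 with Heyl and -0.72 with Hey1. Jag1 had no r above 0.52 with any member, and that one was with Jag2.

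Among 11653 genes, the gene most like Notch4 and Dll4 by Pearson r was Gpr182, at 0.98 with each. These neighbours depend on the measure: by Spearman's rho the first were Arap3 for Notch4 (0.96) and Rbbp8 for Dll4 (0.89), and for 9 of the 10 members fewer than 2 of the 3 nearest genes were shared between the measures. Each of the pair was also among the other's nearest 3, and Shisa5 (0.98) and Icam2 (0.97) completed the sets. Among the nearest to Notch3 were Cspg4, a pericyte proteoglycan (0.95), and Gucy1a2 (0.94), and nearest to Heyl were Fam124a (0.98), Ppp1r14a (0.97) and Des, the muscle intermediate filament desmin (0.97). Hey1 was nearest to Ddah1, Spns2 and Palmd, at 0.96 each. Notch1 was nearest to Hilpda (0.98), Samd5 and Pdia5 (0.96 each), Notch2 to Apobr (0.92), Arhgef17 and Wnt5b (0.90 each), Jag2 to Stox1, Prkab1 (0.92 each) and Gchfr (0.91), and Hes1 to Brd8 (0.92), Arid2 (0.91) and Hspa14 (0.90). Jag1 had the loosest neighbours, Tubgcp3 at 0.87 and Fem1b and Pcp4l1 at 0.77.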

How the data were processed

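The authors deposited 1 matrix per library of whole-number UMI counts per gene and barcode, with software version 3.1.0 named in the header (per the file headers) and build mm10 named in the submitters' processing notes. Which aligner and which annotation release were used is not given in the sources used here. Each matrix lists 6794880 barcodes, so cells were chosen here by at least 1000 UMIs and under 25% mitochondrial UMIs. Counts were summed per library and class and divided by the class total (CPM), and intervals are exact at 95% (Poisson, conditional for ratios, Clopper-Pearson for shares). Cells of 1 library are not replicates, so intervals cover counting error only. A count of 0 has a floor of 3 counts. The members and lists were chosen with earlier results of these data known. Pathway genes are named as the up to 4 with the largest fold in each direction among those called in a list, of which only some are printed. Likeness names the 3 highest Pearson r among genes of at least 10 CPM in a sum and 50 counts, and 1 of these genes is not reported here. The calling step was tested on simulated data. Alternatives were other filters, thresholds, scalings, thinning and leaving out mixed cells. Subsets by Gja5, Car4, Foxj1 and the like were chosen after values were seen. Python 3.11.15, numpy 2.4.6, scipy 1.17.1, pandas 2.3.3 and matplotlib 3.10.9 were used.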

Additional observations from a re-analysis of the deposited data

Results flagged for a closer look

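Between arterial and other endothelial cells, a pair of members was called in opposite directions in different libraries. The arterial to other endothelial ratio of Notch2 was 2.06 in the early HER2-negative library, 0.420 in the early HER2-positive library and 0.458 in the late library, on 16, 3 and 6 arterial counts. That of Heyl was 3.08, 0.616 and 0.739, on 5, 9 and 7 arterial counts. Without mixed cells Notch2 was at 2.21, 0.660 and 0.545, and Heyl had 4, 2 and 4 arterial counts. With all cells, arterial Notch2 stood at 14.4, 3.31 and 6.40 CPM, below the 28.9, 40.9 and 33.7 CPM of free RNA. Arterial Heyl stood at 4.51, 9.92 and 7.46 CPM, below the 24.0, 33.9 and 15.6 CPM of free RNA. The difference between libraries was not tested.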

How the results depend on the processing

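Over 12 alternative settings, counts below are of members summed over the libraries or classes of a comparison. In the main setting 11 were higher and 7 lower in arterial cells, 11 and 1 in pericytes, and 4 and 4 in mammary cells. Airway cells had 14 higher and 0 lower, early against late cells 16 and 5, and HER2-positive against HER2-negative cells 8 and 5. Shares over all genes were worked out for the main setting and without mixed cells only. Under the other settings it cannot be told whether members moved more than other genes. Asking for 2-fold left 3 higher and 3 lower in arterial cells, 2 higher in mammary cells, 10 higher and 3 lower in early against late cells, and 2 lower in HER2-positive against HER2-negative cells. Thinning to 1000 UMIs gave 3 lower in arterial, 6 higher in pericytes, 2 lower in mammary and 4 lower in airway cells, 7 higher early, and 5 higher and 2 lower in HER2-positive cells. Leaving out mixed cells gave 0 lower in pericytes, 4 lower in airway cells, 8 higher early and 5 higher in HER2-positive cells. In airway cells, 0 lower became 2 with equal weight per cell, 4 with background RNA taken off, 3 without the cell with most counts and 2 with median of ratios scaling, which also left 2 higher in mammary cells. With no minimum of counts, 3 were lower in pericytes and 8 in HER2-positive cells, and doubled class thresholds gave 5 higher and 10 lower in HER2-positive cells. Several of the alternatives leave fewer counts or cells, and the cause of these changes was not tested.

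Log2 ratios that changed sign were these. In early HER2-positive arterial cells Notch3 was 0.49 when thinned and Heyl 1.57 without mixed cells. In early airway against alveolar type 2 cells Notch2 was -1.26 thinned and -0.17 with background taken off, and in late ones Notch4 was -0.16 without the cell with most counts. Early against late, Hey1 was -0.56 thinned in alveolar type 2 cells, and in airway cells -0.41 without mixed cells, -0.0012 with equal weight and -1.47 thinned. In other endothelial cells Notch3 was -0.51 and Heyl -1.10 without mixed cells, Heyl -0.23 thinned, and Notch4 outside every class -0.30 at 2000 UMIs. HER2-positive against HER2-negative, doubled thresholds gave Notch3 -1.01 and Heyl -1.27 in arterial cells and Hey1 -0.94 outside every class, and without mixed cells Heyl was -0.59 in arterial and -0.085 in other endothelial cells. Depth limits any statement on members of a few CPM. No paired analysis was possible because each group has 1 library and no test was made.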
